A study of Mus musculus with 10 samples.

Results

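Late and early passages of male mouse embryonic stem cells (mESCs) kept in suspension were compared: 2 libraries taken after 20 passages (p20) against 2 taken after 10 (p10), chosen by their labels, which together make up 4 of the 10 libraries of the series. All cells were C57BL/6 mESCs of 2 lines derived in suspension under Keniry2022, a modified method in which mESCs float on untreated plates and are split every day, in 2i/LIF medium at low oxygen. Each line was divided at p0 and kept either in this way (labelled New) or under Mulas2019, on gelatin with fewer splits (labelled Old). The 2 gelatin groups, p10 and p20 with 2 libraries each, serve below as a second passage comparison. They also count in the choice of features tested and in the spread behind each p-value. The pair of p0 libraries gives the starting level. Equal passage numbers are not equal times, since passages were further apart on gelatin. Per the study, one of the lines lost its Y chromosome during derivation, so both groups mix cells with and without a Y. The study calls the lines independent. Each p-value rests on the spread between 2 libraries per group, pooled over the 4 passaged groups. The same 2 lines recur in every group and the test had no term for line, so the groups do not add independent lines.

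The naive state of mESCs is held by 2 inhibitors, one of MEK in the ERK cascade and one of GSK3, which frees beta-catenin and WNT target genes, together with LIF, which acts through STAT3. Oct4 (Pou5f1), Nanog, Klf4 and their partners form the transcription factor core of that state. Hypoxia-inducible factors (HIFs) are transcription factors whose alpha subunits are hydroxylated by the oxygen-dependent enzymes Egln1 to Egln3 and then destroyed, and which, when stable, bind a short core motif near genes of glycolysis, angiogenesis and collagen modification. Naive mESCs use both glycolysis and respiration.

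The suspension libraries held 28031001 to 29474726 reads, within the 24054001 to 30236830 of the whole series. Expression is given as log2 RPKM (reads per kilobase of exon, scaled to the library total), so a difference of 1 is a doubling in level. The summed reads of the Y-linked genes Ddx3y, Eif2s3y, Kdm5d and Uty were 94 and 7929 in p10 replicates 1 and 2, and 6659 and 48 in p20 replicates 1 and 2. The library labelled p20 replicate 1 therefore went with p10 replicate 2 on these genes, against the numbers, and the comparison was made without pairing by line. Across 11654 tested features, the SD of the log2 difference was 0.191 between p10 replicate 1 and p20 replicate 2 and 0.204 between p10 replicate 2 and p20 replicate 1, against 0.229 and 0.260 within the p10 and p20 pairs. Libraries with the same state of the Y-linked genes were thus closer across passages than libraries of the same passage were to each other. All 10 mESC markers lay between 5.18 and 10.44, and their summed RPKM was 3450 and 3340 at p10 and 3320 and 3230 at p20. Summed markers of primitive endoderm lay between 1.57 and 2.18 RPKM, and those of mesoderm between 2.21 and 2.65. Those of fibroblast feeders (3 of 7 at 0 reads in all 4 libraries) were at 0.911 and 0.813 at p10 and 0.426 and 0.494 at p20. Trophoblast markers summed to 24.2 to 28.3 RPKM, nearly all from Tfap2c, a gene that mESCs use too, neural markers to 89.9 to 100, nearly all from Tubb3, and 2-cell-like markers to 2.81 to 4.01. The markers of each list overlapped between p10 and p20 in summed level, except those of mESCs, primitive endoderm and feeders, which were lower in both p20 libraries, and those of mesoderm, which were higher. The part of other cells in the results below was not tested, and in bulk RNA fewer cells of a type and less RNA per cell cannot be told apart.

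Most differences between p10 and p20 in suspension were small, and few features passed the test. With 2 libraries per group and no term for line, a low count does not show that the other features were equal. Of 11654 features, 4 (0.0343%) passed the moderated test of limma at an adjusted p of 0.05, all 4 of them higher at p20, and the median size of a difference was 0.0752. Without adjustment, 1475 features (12.7%) had a p under 0.05, of which 772 (6.62%) were higher and 703 (6.03%) lower at p20. The 2 groups of 2 did not overlap in 2649 features higher (22.7%) and 2648 lower (22.7%) at p20. A difference of at least 1 was seen in 12 features, 7 of them higher at p20. With 2 libraries against 2, an exact permutation test of a single value cannot go below p = 0.333.

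Loxl2, a lysyl oxidase that cross-links collagen and a known HIF target (chr14:69609171-69695833, plus strand, mm10), rose most of the 4. Its level was -1.19 and -1.09 at p10 and -0.10 and 0.13 at p20, from 66, 72, 139 and 171 reads. The difference was 1.15 (SE 0.131, limma adjusted p = 0.0488), a 2.22-fold rise, and on gelatin, where its level was 1.57 to 1.68, the difference was 0.10. Tnfrsf19, a receptor of the TNF family and a WNT target known as Troy (chr14:60963834-61046855, minus strand), rose from 2.84 and 2.85 to 3.42 and 3.37. That is a difference of 0.55 (SE 0.0536, limma adjusted p = 0.0457), close to the 0.61 seen on gelatin (limma adjusted p = 0.00969). Lima1, an actin-binding protein also called Eplin (chr15:99778470-99875428, minus strand), rose from 5.02 and 5.08 to 5.41 and 5.43, a difference of 0.38 (SE 0.0408, limma adjusted p = 0.0461) against 0.02 on gelatin. Exons of Lima1 overlap Gm17057 and Gm17058, and the part of shared reads was not tested. The fourth, Gm6665, is a predicted gene inside the span of Wdr33, with 68 to 122 reads. It rose from 3.22 and 3.23 to 4.08 and 3.84 (limma adjusted p = 0.0457), and its reads cannot be told apart from those of Wdr33 where they share exons. Each of the 4 calls was narrow, at a limma adjusted p of 0.0457 to 0.0488. Each was lost in most fits with 1 library left out, gelatin libraries included. The gelatin libraries lend their spread and also count in the choice of features tested. With a suspension library left out, differences ranged from 1.04 to 1.27 for Loxl2 and 0.53 to 0.57 for Tnfrsf19. For Lima1 they ranged from 0.35 to 0.41, and for Gm6665 from 0.62 to 0.85. With the labelled replicate numbers as a block, limma called 8 features, 3 of these 4 (without Loxl2) and Ldha, Pfkl, Ndufa4l2 and Bhlhe40 among them, and with the numbers of the p20 suspension pair exchanged, 11, all 4 and Bhlhe40 and Skil among them. A count model, voom in limma on reads recovered from the deposited values, called 48 features, 40 of them higher, with 3 of these 4 among them and 13 members of the HIF or glycolysis lists below.

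**Figure D1:**
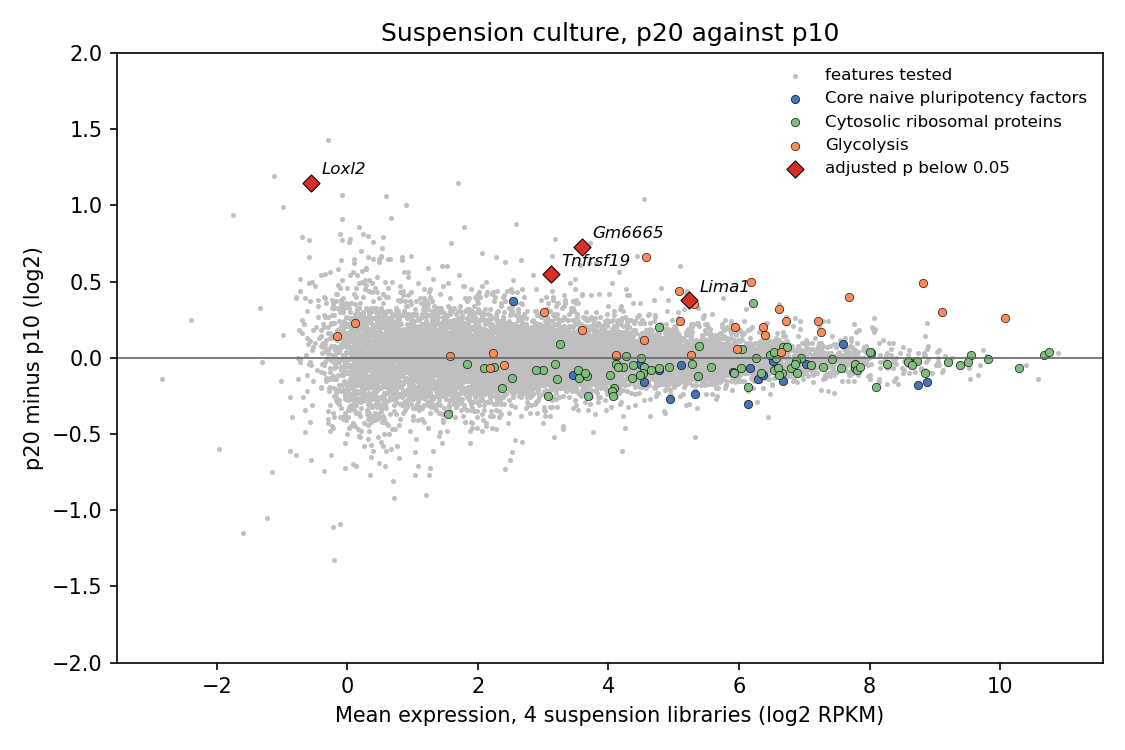
The p20 minus p10 difference of every tested feature in suspension (log2, vertical axis) is plotted against its mean level over the 4 suspension libraries (log2 RPKM, horizontal axis). Grey points are tested features, coloured points are members of 3 lists and red diamonds the 4 features that passed the test. Most glycolytic genes lie above 0, and most core naive factors and cytosolic ribosomal protein genes lie just below it.

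HIF targets and genes of glycolysis were those most uniformly higher at p20 among the lists examined. Promoter sequences of 4 of these genes are shown because they carry the core motif that HIFs bind, ACGTG or GCGTG, on either strand. They are RefSeq sequences of build GRCm38.p6, 250 bases up to the transcription start, 5′ to 3′ in the direction of the gene, with the motif or its complement (CACGT or CACGC) in capitals. CACGTG reads as ACGTG on both strands.
Ldha, chr7:46845554-46845803, plus strand: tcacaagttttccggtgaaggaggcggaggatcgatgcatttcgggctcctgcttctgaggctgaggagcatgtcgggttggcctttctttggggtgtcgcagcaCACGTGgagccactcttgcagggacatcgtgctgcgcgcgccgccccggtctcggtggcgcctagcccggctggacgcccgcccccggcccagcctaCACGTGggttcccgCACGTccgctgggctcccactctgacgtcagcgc
Bnip3, chr7:138909507-138909756, minus strand: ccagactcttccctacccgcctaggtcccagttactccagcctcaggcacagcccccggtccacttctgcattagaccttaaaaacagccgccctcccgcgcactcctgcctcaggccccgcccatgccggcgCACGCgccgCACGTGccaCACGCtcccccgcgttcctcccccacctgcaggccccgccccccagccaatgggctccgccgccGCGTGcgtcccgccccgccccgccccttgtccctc
Slc16a3, chr11:120948817-120949066, plus strand: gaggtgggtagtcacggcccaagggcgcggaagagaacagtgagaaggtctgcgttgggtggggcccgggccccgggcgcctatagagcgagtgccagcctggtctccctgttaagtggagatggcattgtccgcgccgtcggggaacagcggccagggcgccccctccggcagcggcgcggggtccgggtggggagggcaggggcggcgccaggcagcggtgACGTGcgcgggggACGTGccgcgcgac
Egln3, chr12:54203875-54204124, minus strand: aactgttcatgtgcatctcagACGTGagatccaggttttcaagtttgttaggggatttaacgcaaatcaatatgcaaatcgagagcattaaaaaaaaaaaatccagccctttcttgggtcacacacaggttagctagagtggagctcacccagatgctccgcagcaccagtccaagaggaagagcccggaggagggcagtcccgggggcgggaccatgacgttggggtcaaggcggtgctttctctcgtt
Ldha has 2 RefSeq starts, of which the upstream one is shown. Of the tested HIF list members, 21 of 30 matched the RefSeq table, with 31 promoters, of which 26 (83.9%) held ACGTG or GCGTG. For glycolysis, 26 of 29 members matched, with 37 promoters, of which 29 (78.4%) did. Over all 32851 RefSeq promoters of the same length the share was 38.6%. These are matches of letters in windows whose base composition differs, and the binding of HIFs was not measured. The HIF list was made of known HIF targets, so its high share can follow from that choice and does not bear on passage. The same holds for the glycolysis share, since genes of glycolysis are among those that HIFs bind and Slc2a1 and Slc2a3 are in both lists. The 38.6% also covers promoters of genes that were not tested.

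Of the 4 genes shown, Ldha, which turns pyruvate into lactate, was at 8.58 and 8.55 at p10 and at 9.15 and 8.95 at p20, a difference of 0.49 (SE 0.0617, limma adjusted p = 0.0649). Bnip3, a mitophagy receptor of the outer mitochondrial membrane, was at 4.82 and 4.78, then 5.51 and 5.29, a difference of 0.60 (SE 0.0851, limma adjusted p = 0.0664). Slc16a3, the lactate exporter MCT4, was at 4.32 and 4.18, then 5.08 and 4.73. In all 3, both p20 libraries lay above both p10 libraries, and none passed the test. Egln3, the prolyl hydroxylase that is itself induced by HIF, was at 4.03 and 3.73, then 4.59 and 4.29, again without overlap. On gelatin the differences of Ldha, Bnip3, Slc16a3 and Egln3 were -0.11, -0.13, -0.05 and -0.09.

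Of 30 tested members of the hypoxia and HIF target list, 1 passed the test, Loxl2, which was tested because of its gelatin levels. Without overlap, 21 (70%) were higher at p20 and 2 (6.67%) lower, against 22.7% each way over all features. The median difference was 0.27, with 0.10 to 0.42 over the 4 pairs of a p20 and a p10 library, against 0 over all features. Ndufa4l2, a HIF-induced protein of mitochondria, was at 2.93 and 2.65 at p10 and 3.67 and 3.47 at p20, although its exons overlap Shmt2. Pfkfb3, which makes the activator of phosphofructokinase, was at 2.34 and 2.34, then 3.16 and 2.80. Pdk1, the kinase that shuts pyruvate out of the citric acid cycle, was at 3.12 and 3.19, then 3.63 and 3.40. In these 3 both p20 libraries lay above both p10 libraries, with p20 replicate 1 highest. The collagen-modifying enzymes P4ha1 and Plod2 differed by 0.42 and 0.38, and Egln1 by 0.36, each without overlap, and P4ha1 by 0.24 without p20 replicate 1. Slc2a1 and Slc2a3, the glucose transporters GLUT1 and GLUT3, differed by 0.24 and 0.17. The alpha subunits themselves were the 2 members lower without overlap: Hif1a was at 4.97 and 4.96 at p10 and 4.81 and 4.83 at p20, and Epas1, which encodes HIF2 alpha, at 3.71 and 3.82, then 3.40 and 3.70. Vegfa, the angiogenic factor, was at 3.95 and 3.80, then 3.82 and 3.88, and overlapped. Bhlhe40, a repressor known to be induced by hypoxia and in neither list, was at 4.21 and 4.0, then 4.84 and 4.71 (difference 0.67, limma adjusted p = 0.0649).

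**Figure D2:**
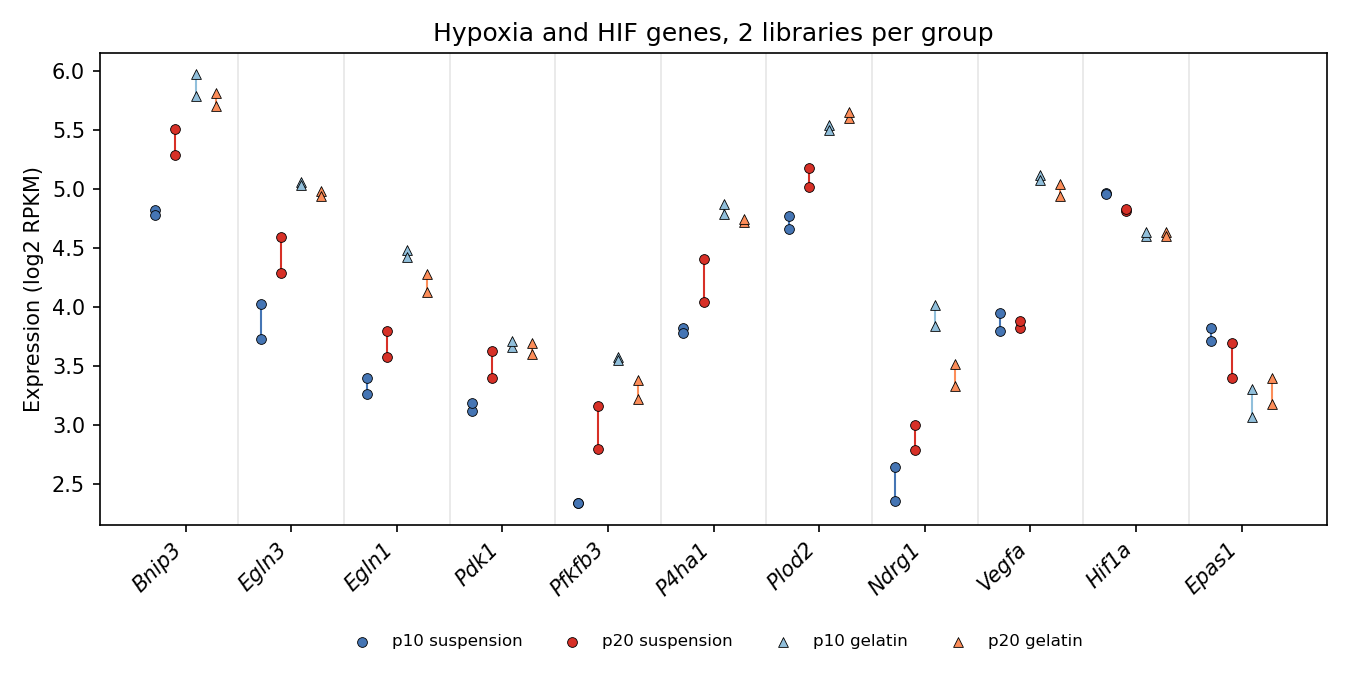
Levels of 11 genes of the hypoxia and HIF list (log2 RPKM) are plotted by library, with circles for suspension, triangles for gelatin and a line joining the 2 libraries of a group. For Bnip3 through Ndrg1 the p20 suspension circles lie above the p10 circles and below the gelatin triangles, apart from Pdk1, whose upper p20 circle reaches the triangles. Vegfa overlaps between p10 and p20, and Hif1a and Epas1 lie lower at p20.

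Most steps of glycolysis were higher at p20. Of 29 tested members, 20 (69.0%) were higher at p20 without overlap, none lower and none passed the test, and the median difference was 0.20 (0.12 to 0.32 over the 4 pairs). In the order of the pathway, hexokinase 2 (Hk2) differed by 0.20, glucose phosphate isomerase (Gpi1) by 0.24, the liver-type phosphofructokinase Pfkl by 0.50, aldolase A (Aldoa) by 0.30, triose phosphate isomerase (Tpi1) by 0.40, phosphoglycerate kinase (Pgk1) by 0.35, phosphoglycerate mutase (Pgam1) by 0.24, enolase (Eno1) by 0.32 and pyruvate kinase (Pkm) by 0.26, which became 0 for Pkm under quantile normalisation. Each of these 9 was higher in both p20 libraries. Pfkl, for example, was at 5.96 and 5.90 at p10 and at 6.53 and 6.32 at p20 (limma adjusted p = 0.0664). The isoforms Pfkp and Pfkm differed by 0.06 and 0.02, and enolase 3 (Eno3) by 0.03. Thus the isoforms of a step did not have equal differences, although none of these was tested against another. Gapdh was listed at only 2.14 and 2.30, then 2.18 and 2.11, which is low for this enzyme, and its many processed copies in the genome leave its reads uncertain. Pdha1, the entry enzyme of the citric acid cycle, differed by 0.04.

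The p10 suspension libraries were the lowest of the passaged ones for both lists. Relative to the mean of the 4 suspension libraries, the median HIF list member was at -0.07 and -0.21 in the p10 libraries, 0.24 and 0.06 at p20, -0.16 and 0.20 at p0, and 0.53 to 0.70 in the 4 gelatin libraries. For glycolysis the levels were -0.08 and -0.15, then 0.17 and 0.06, with -0.04 and 0.07 at p0 and 0.30 to 0.38 on gelatin. So p20 in suspension lay between p10 in suspension and either passage on gelatin. Each p20 library alone gave the same direction: in p20 replicate 1, 24 of 30 HIF list members (80%) lay above both p10 libraries, and in p20 replicate 2, 22 (73.3%), against 38.6% and 37.2% of all features. The corresponding counts for glycolysis were 22 of 29 (75.9%) in each. The 2 lists share Slc2a1 and Slc2a3.

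**Figure D3:**
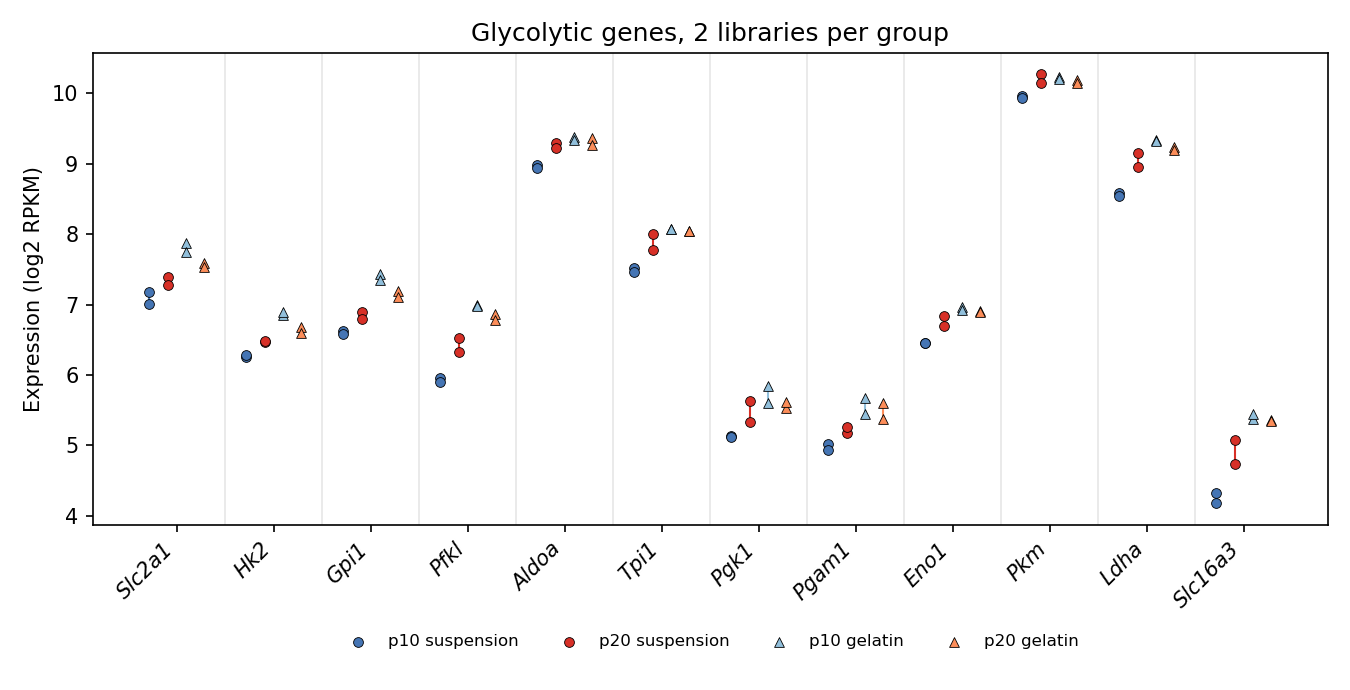
Levels of 12 genes of glucose uptake, glycolysis and lactate export (log2 RPKM) are plotted by library in the order of the pathway, with circles for suspension and triangles for gelatin. In all 12 the p20 suspension circles lie above the p10 ones, and for Ldha the 4 circles run from 8.55 to 9.15 against 9.20 to 9.34 on gelatin.

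The core of the naive network was slightly lower at p20. Of 20 tested factors none passed the test, 12 (60%) were lower without overlap and 2 (10%) higher, and the median difference was -0.10 (-0.15 to -0.05 over the pairs). Pou5f1 was at 8.85 and 8.81 at p10 and 8.64 and 8.67 at p20, Nanog at 9.02 and 8.89, then 8.81 and 8.78, and Klf4 at 5.46 and 5.42, then 5.18 and 5.23. Zfp57, a factor that protects imprints, was at 6.26 and 6.32, then 5.89 and 6.10, and Tbx3 at 5.08 and 5.09, then 4.73 and 4.90. In these 5, both p20 libraries lay below both p10 libraries. On gelatin the same 5 differed by 0.02, 0, -0.24, 0.36 and -0.04, in that order, and the rise of Zfp57 passed the test there (limma adjusted p = 0.0386). In suspension, Prdm14, a repressor of primed genes, differed by -0.16. Others hardly differed: Esrrb was at 6.54 and 6.53, then 6.49 and 6.55, Tfcp2l1 differed by -0.04, and Klf2 by 0.02. Sox2 and Gbx2 were the 2 factors higher without overlap, by 0.09 and 0.37, and Sox2 lies on chromosome 3, described below. Without p20 replicate 1 these became 0.03 and 0.60, and without p20 replicate 2, 0.16 and 0.14. On gelatin Sox2 and Gbx2 differed by 0.09 and 0.73, the latter with a limma adjusted p of 0.0426. In suspension the median difference of the 20 factors from p10 was -0.14 in p20 replicate 1 and -0.05 in p20 replicate 2.

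Among 30 naive state markers and effectors the median difference was -0.03, with 7 higher (23.3%) and 10 lower (33.3%) without overlap, against 22.7% each way over all features, and none past the test. Utf1, a chromatin-bound factor of pluripotent cells, was at 6.67 and 6.61, then 6.16 and 6.35. Dppa3 (Stella), which shields maternal methylation marks, was at 5.52 and 5.34, then 5.90 and 5.54, and differed by -0.85 on gelatin (limma adjusted p = 0.0426). Of 16 tested formative and primed markers, 10 (62.5%) were higher without overlap and 3 lower (18.8%), with a median of 0.10 (0.07 to 0.14). Lefty1 and Lefty2, inhibitors of Nodal, were at 3.15 and 3.51, then 4.17 and 3.99, and at 4.06 and 4.17, then 4.42 and 4.36. Foxd3 was at 3.44 and 3.41, then 2.62 and 3.19, and Pou3f1 and Etv4 were the other members lower without overlap. Otx2 and Fgf5, the defining genes of the formative state, were below the filter and were not tested. Of the 36 lineage markers of differentiated cells, 7 passed the filter.

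Several WNT targets were higher at p20. Of 12 tested members, 8 (66.7%) were higher without overlap and 3 lower (25%), none passed the test and the median was 0.12 (0.04 to 0.18). Sp5, a direct WNT target, was at 0.26 and 0.54 at p10 and 1.39 and 1.41 at p20, a difference of 1.0 (SE 0.170, limma adjusted p = 0.0868). Cdx1 was at 3.12 and 3.38, then 3.83 and 3.90, and Axin2, the feedback inhibitor of the pathway, at 1.71 and 1.86, then 2.16 and 2.26. Lef1, a partner of beta-catenin on chromosome 3, was at 2.56 and 2.58, then 3.19 and 3.02. On gelatin, Cdx1 and Axin2 rose by 1.22 and 0.54 (limma adjusted p = 0.00969 and 0.0369), whereas Lef1 differed by 0.10. Myc, also a target of WNT, was at 1.26 and 1.43, then 0.27 and 1.18, and Tcf7l2 and Sfrp1 were the other members lower without overlap.

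Germline genes and PRC2 members were mostly a little lower. Of 29 tested members of a list of methylation-sensitive germline genes, 15 (51.7%) were lower without overlap and 2 higher (6.90%). None passed the test, and the median was -0.10 (-0.16 to -0.07). The 15 include Zfp42, which is also counted among the core naive factors. Mael, a piRNA pathway gene, was at 3.03 and 2.65, then 2.47 and 2.14, Piwil2 at 2.17 and 2.08, then 1.79 and 1.60, and Ddx4 (Vasa) at 3.81 and 3.50, then 3.45 and 3.23. The 2 higher ones were Brdt and Magea4, the latter at -0.05 and 0.18, then 0.59 and 0.84. The 19 genes of the DNA methylation machinery had a median of -0.02. Dnmt3b, a de novo methyltransferase, was at 4.94 and 5.22, then 5.20 and 5.13. Of 11 tested PRC2 members, 6 (54.5%) were lower without overlap and 1 (Rbbp7, 9.09%) higher, with a median of -0.07 (-0.08 to -0.03). Eed was at 7.05 and 7.04, then 6.92 and 6.89, while the catalytic subunit Ezh2 differed by -0.03.

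Genes of ribosomal proteins and of ribosome biogenesis were slightly lower as groups. Of 86 tested cytosolic ribosomal protein genes, 36 (41.9%) were lower and 5 (5.81%) higher without overlap, with a median of -0.06 (-0.08 to -0.04). For 76 mitochondrial ribosomal protein genes the counts were 30 (39.5%) and 2 (2.63%), with a median of -0.06 (-0.08 to -0.01), and for 78 ribosome biogenesis factors 34 (43.6%) and 7 (8.97%), with a median of -0.03. None of these passed the test. The higher ones were Rpl8, Rpl14, Rpl19, Rpl29 and Rps10 among the cytosolic and Mrpl44 and Mrps30 among the mitochondrial proteins. The 2 p20 libraries differed for the 76 mitochondrial ones. In p20 replicate 1, 38 (50%) lay below and 24 (31.6%) above both p10 libraries, against 38.6% each way over all features. In p20 replicate 2, 52 (68.4%) lay below and 6 (7.89%) above, against 37.5% and 37.2%. Rpl10a was at 4.13 and 4.26, then 3.95 and 3.94, Mrps24 at 5.93 and 5.84, then 5.69 and 5.72, and Nop58, a core protein of box C/D snoRNPs, at 8.24 and 8.20, then 8.12 and 8.04. Ribosomal protein genes have many processed copies, so single values are uncertain. Translation initiation factors and aminoacyl-tRNA synthetases had medians of 0 and -0.01.

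Of 50 replication and mitosis genes, 23 (46%) were higher without overlap and 6 (12%) lower, with a median of 0.05 (0.04 to 0.08), and Mcm4, a helicase subunit, was at 6.65 and 6.68, then 6.78 and 6.76. The 15 cyclins and CDK inhibitors of G1 had a median of 0.07 (0.02 to 0.12). Among 34 NRF2 and antioxidant genes, 18 (52.9%) were higher without overlap and 2 (5.88%) lower, with a median of 0.09 (0.08 to 0.11). Srxn1, which repairs peroxiredoxins, was at 4.20 and 4.21, then 4.65 and 4.47, and Hmox1, heme oxygenase, at 4.71 and 4.65, then 4.93 and 4.86. On gelatin Srxn1 and Hmox1 differed by 0.28 and -0.22, the latter with a limma adjusted p of 0.0492. In suspension the 2 lower ones were Gpx1 and Sod1. In the list of ATF4 targets and integrated stress response genes, 18 of 39 (46.2%) were lower and 6 (15.4%) higher, with a median of -0.06 (-0.12 to 0.01). Chac1, which degrades glutathione, was at 4.14 and 3.88, then 3.54 and 3.50. On gelatin Chac1 differed by -0.45 (limma adjusted p = 0.0461). The median of the ATF4 list was -0.19 there, with 30 members lower and 1 higher without overlap, against 25.5% and 27.7% of all features. None of the genes of these 4 lists passed the test in suspension. Medians of 16 further lists, among them ERK targets, p53 targets, chaperones, integrins and respiratory complexes, lay between -0.10 and 0.13.

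Among genes not described so far, Klhl13, an X-linked ubiquitin ligase adaptor had the largest difference of an abundant gene. It was at 3.99 and 4.04 at p10 and 5.33 and 4.78 at p20, a difference of 1.04 (SE 0.166, limma adjusted p = 0.0828) against 0.64 on gelatin. Cd24a, a surface glycoprotein, was at 3.47 and 3.52, then 4.33 and 3.90. Skil, a repressor of TGF-beta signalling on chromosome 3, was at 3.82 and 3.80, then 4.39 and 4.21. Peg10, an imprinted gene of retrotransposon origin, was at 1.58 and 1.85, then 2.66 and 2.15, after -0.64 and 0.60 at p0. In the other direction, Snapc5, a subunit of the complex that starts snRNA genes, was at 4.78 and 4.88, then 4.45 and 4.45 (difference -0.38, limma adjusted p = 0.0664). The meiotic cohesin Smc1b was at 3.66 and 3.41, then 3.22 and 2.92. The nuclear RNA Malat1 was at 3.29 and 3.15, then 2.76 and 2.91, where on gelatin it rose from 3.85 and 4.37 to 5.24 and 5.13 (limma adjusted p = 0.0319), with Gm20417 overlapping it. None of the genes in this paragraph passed the test in suspension. On gelatin, besides Malat1, Smc1b passed it with a difference of -0.59 (limma adjusted p = 0.047). Xist was below the filter, at -2.64 to -2.28 in all 4 libraries.

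One chromosome stood apart. Over 531 tested features of chromosome 3 the median difference was 0.11 (0.03 to 0.18 over the pairs), and 249 (46.9%) were higher and 34 (6.40%) lower without overlap, whereas the medians of the other autosomes lay between -0.03 and 0.02. Relative to the mean of the 4 libraries, chromosome 3 was at -0.07 and -0.05 at p10, and at 0.13 in p20 replicate 1 but -0.02 in p20 replicate 2. One library thus carried most of it: in p20 replicate 1, 428 features (80.6%) lay above both p10 libraries, in p20 replicate 2, 268 (50.5%), and without p20 replicate 1 the median difference was 0.04. The higher level in p20 replicate 1 ran along the whole chromosome, with medians of 0.10 to 0.17 in each of its windows of 20 Mb. The gelatin library p20 replicate 2 was also high, at 0.18, against -0.08 to 0.01 in the other gelatin libraries and -0.07 and -0.06 at p0. Both libraries had high reads of Y-linked genes, as did 3 libraries in which chromosome 3 was not high. The number of chromosome copies was not measured in these files, and its part in the values was not tested. Without chromosome 3, 2400 features (21.6%) were higher and 2614 (23.5%) lower without overlap. Of the genes named above, Sox2, Lef1 and Skil lie on chromosome 3, the HIF list has no member there and glycolysis has 1, Slc16a1, without which its median was 0.22.

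**Figure D4:**
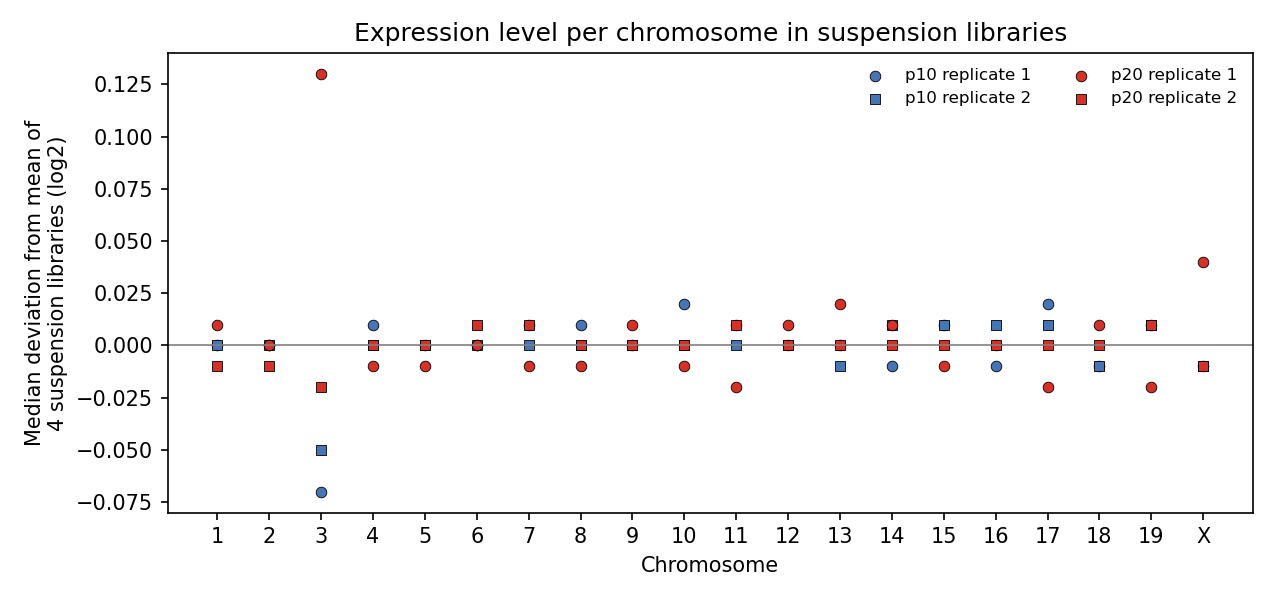
The median deviation of all tested features of a chromosome from their mean over the 4 suspension libraries (log2, vertical axis) is plotted for each autosome and X. Circles and squares mark replicates 1 and 2, blue p10 and red p20. On chromosome 3 the red circle lies at 0.13, and no other point leaves the range of -0.07 to 0.04.

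More features passed the limma test on gelatin, 288 (2.47%), 188 of them higher at p20, against 4 in suspension. The gelatin count was 0 without p20 replicate 2 of gelatin, 12 and 13 without its p10 and p20 replicates 1, and 15 without either p10 suspension library. The test of the difference between the 2 passage differences called 0 features, with 1836 at an unadjusted p under 0.05, the smallest limma adjusted p being 0.0636, and voom on the recovered reads called 93. With the labelled block the test called 17 features, and with the p20 suspension numbers exchanged 0, where gelatin had 493 calls. The 2 comparisons share no library. Their differences had the same sign in 52.3% of features, with a correlation of 0.176 across the 11654 features, which are not independent. Of all 11654 features, 2649 (22.7%) were higher and 2648 (22.7%) lower without overlap in suspension, and 3230 (27.7%) and 2966 (25.5%) on gelatin. With shares of this size many features fall in both sets without any link. Without overlap in both comparisons, 888 features were higher and 709 lower in both, 646 were higher in suspension and lower on gelatin, and 625 the reverse. Whether these counts differ from those without a link was not tested. For Ldha the suspension difference exceeded the gelatin one by 0.60 (limma adjusted p = 0.0690), for Pfkl by 0.66 (0.0690) and for Loxl2 by 1.06 (0.0781). Over the HIF list the medians were 0.27 in suspension and -0.09 on gelatin, where 7 members were higher and 15 lower without overlap, against 27.7% and 25.5% of all features. For glycolysis they were 0.20 and -0.07, and for the core naive factors -0.10 and -0.01. The WNT list had a positive median under both methods, 0.12 and 0.17, and Tnfrsf19 passed the test in both.

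**Figure D5:**
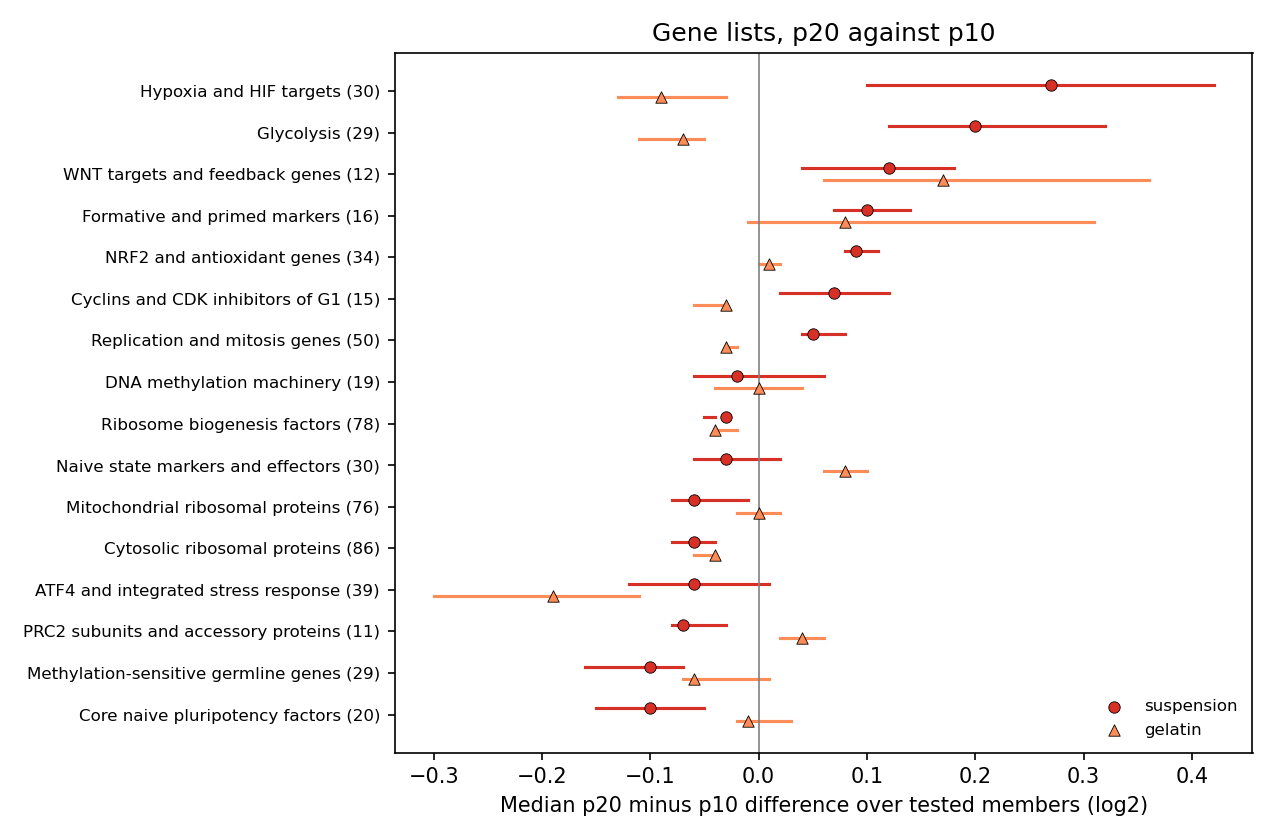
Median p20 minus p10 differences (log2, horizontal axis) of 16 gene lists, with the number of tested members in brackets, are plotted for suspension (circles) and gelatin (triangles). Lines span the 4 pairs of a p20 and a p10 library. HIF targets and glycolysis lie highest in suspension, at 0.27 and 0.20, and below 0 on gelatin.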

How the data were processed

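RNA-seq libraries of male mESCs were compared as labelled, 2 per group. Per the study, reads were trimmed, aligned to mm10 with HISAT2 and quantified in SeqMonk, whereas TopHat2 2.0.12 and bcl2fastq are the tools in the submitters' processing notes. For the strand setting and annotation release, no statement was found in the sources used. The deposited values are log2 RPKM although named log CPM, and the authors' software entered 0 reads as 0.9 reads. From these floors read totals were worked out, and 99.9877% of values were whole reads within 0.1 reads. Depth is given in the report, and read counts carry counting error only.

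Differences were tested on the log2 values with limma 3.58.1 (R 4.3.3, eBayes with trend, two-sided, Benjamini-Hochberg, threshold 0.05) in 8 libraries as 4 groups without a block. The p0 pair was left out because of its spread (SD of the log2 difference 0.613). Features above 0 in 50% of libraries were tested, 11654 of 25965. The fit was also run on simulated reads that had no difference between lines, so that run cannot show how the test behaves with the spread between lines. Names were matched to GENCODE vM21 for 25508 features, and 6945 features share exon positions with another. The members and gene lists were chosen with earlier results of these data known. Named genes were those called, the 12 largest separated differences each way at a mean log2 of at least 3, up to 4 leading members per list and fixed pluripotency and Y-linked genes. Other genes named with values (Pdk1, Egln1, Slc2a1, Slc2a3, the glycolytic steps, Epas1, Vegfa, Esrrb, Klf2, Gbx2, Ddx4, Myc, Ezh2, Rbbp7 and the like) were chosen after their values were seen. Alternatives were another sample set, filter, pseudocount, centring, quantile normalisation, prior, library weights, voom, blocks and each library left out. Leaving out chromosome 3, taking each p20 library alone and the crossed block were added after seeing the data.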

Additional observations from a re-analysis of the deposited data

Results flagged for a closer look

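For 6 gene lists the median p20 minus p10 difference had one sign in all 4 pairs of libraries in suspension and the opposite sign in all 4 pairs on gelatin, and the difference between the methods was not tested for any list. HIF targets had 0.27 in suspension and -0.09 on gelatin, and glycolysis 0.20 and -0.07. Replication and mitosis genes had 0.05 and -0.03, the cyclins and CDK inhibitors of G1 0.07 and -0.03, and PRC2 members -0.07 and 0.04. KRAB zinc finger genes of the chromosome 13 and other clusters had -0.02 and 0.19. The 4 pairs of a method share their libraries, so they are not 4 independent comparisons.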

How the results depend on the processing

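Calls in suspension (4) numbered 0 with all 10 libraries, with the 4 suspension libraries alone and without the filter, 2 with median centring and without the trend, 7 with quantile normalisation, 48 with voom and 0 to 16 with a library left out. Calls on gelatin (288) numbered 0 with all 10 libraries, 5 without the filter, 41 without the trend, 673 with voom and 0 to 306 with a library left out. Calls of the difference between methods (0) numbered 2 with the stricter filter, 93 with voom and 0 to 22 with a library left out. The cause was not tested. Each line was divided between the methods, so the design pairs samples by line, but no label ties a number to a line. Same-numbered libraries deviated together in p10 suspension and both gelatin groups (correlation of deviations 0.63, 0.587 and 0.514) and against each other wherever p20 suspension entered (-0.5 with p10 suspension, -0.43 and -0.696 with gelatin). With the replicate block of the labels, 8 features were called in suspension, 280 on gelatin and 17 for the difference between methods. With the numbers of the p20 suspension pair crossed, the block gave 11, 493 and 0 calls.

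The median of WNT targets became 0.21 without the filter. With a suspension library left out, medians ranged from 0.19 to 0.39 for HIF targets, 0.17 to 0.29 for glycolysis, 0.10 to 0.20 for WNT targets, 0.08 to 0.12 for NRF2 genes, -0.14 to -0.05 for core naive factors, -0.04 to 0.01 for naive markers, -0.07 to -0.04 for cytosolic and -0.07 to -0.03 for mitochondrial ribosomal proteins, and 0.04 to 0.18 for chromosome 3. Pkm became 0 with quantile normalisation. With a library left out, 10 of the genes named in the text took both signs or reached 0: Dnmt3b ranged from -0.06 to 0.22, Eno3 from -0.09 to 0.16, Klf2 from -0.05 to 0.09, Pdha1 from -0.02 to 0.10, Vegfa from -0.10 to 0.05, Gapdh from -0.15 to 0.01, Tfcp2l1 from -0.14 to 0.06, Esrrb from -0.05 to 0.01, Pfkm from 0 to 0.05 and Ezh2 from -0.05 to 0. Of 60 named genes with a difference of at least 0.2 in size, 16 moved by more than 1.5 times. Myc (-0.62) had no value in the fits without a suspension library, so the 16 do not cover it. With 2 libraries per group, the size of the list medians moved with the library left out. Those of naive markers (-0.04 to 0.01) and of the DNA methylation machinery (-0.06 to 0.01) took both signs. The other lists with ranges given above kept their sign, in fits that share libraries and are not independent checks.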
